A study of Mus musculus with 52 samples.

Results

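The genes described here carry the mark TRUE in an unlabelled column of the authors' gene tables, but in untreated mouse embryonic fibroblasts they had a lower ribosome footprint score in the endoplasmic reticulum (ER) column than in the cytosol column. They number 164 of the 22417 genes in the tables, of which 8434 were marked. To be included, a marked gene needed a footprint value in every thapsigargin column, an untreated cytosol score of at least 10 and an untreated ratio of ER to cytosol below 1. Of 204 genes that met these conditions, 40 were left out by symbol, since they belong to families such as respiratory chain subunits, mitochondrial ribosomal proteins, solute carriers, Tmem proteins and Rab GTPases, or are Rtp4 or Ifi27l2a. The members were thus chosen by their untreated footprint scores, and every untreated ER to cytosol difference below is a description of that choice.

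The cells had the genotype CReP+/-; GADD34+/+ (WT), both genes encoding regulatory subunits of the eIF2 alpha phosphatase. They were untreated, treated with thapsigargin (Tg, an inhibitor of the ER calcium pump) for 0.5, 1, 2 or 4 h, or treated with dithiothreitol (DTT, a reducing agent) for 30 min and then left to recover for 10 or 20 min. ER and cytosol fractions were profiled by sequencing of ribosome footprints and of mRNA. There were 52 labelled samples, 2 replicates for each of 26 groups, and the tables give 1 pooled score per gene and group. No spread between replicates could be computed and no test was run. The depth behind each score is unknown, and a difference is called over 2-fold when log2(score + 1) differs by more than 1. All 11 fibroblast markers on the list had a summed untreated footprint score of 18.1 to 9428, whereas the 15 markers of leukocytes, epithelium, endothelium and muscle were absent or at most 1.16.

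Most membrane and secreted proteins reach the ER while they are being made, because a signal sequence or an early membrane span is recognised as it leaves the ribosome. Tail-anchored proteins have a single membrane span at the very C-terminus, which leaves the ribosome only when translation ends, and they are inserted afterwards by the TRC40 (GET) pathway. Most mitochondrial membrane proteins are likewise made on ribosomes in the cytosol and imported after synthesis. SNARE proteins, which drive the fusion of vesicles with their target membranes, are mostly tail-anchored.

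Each fraction was scaled on its own. An untreated ER score in the DTT table was 0.913 times the score in the Tg table, and an untreated cytosol score 1.06 times, for every gene, so a ratio of 1 has no absolute meaning. The genes nearest the ratio threshold were Myof at 0.950, Htra2 at 0.986 and Fgf7 at 0.988 on the inside, and Fndc3b at 1.01, Mpv17 at 1.02 and Bcl2l1 at 1.03 on the outside. At the level threshold, Vamp2 had an untreated cytosol score of 10.1, Auh 10.3 and 3110001D03Rik 10.3, while Hint2 at 9.98, Hars2 at 9.92 and Acbd5 at 9.65 were outside. Throughout, the 164 genes are set beside 102 marked genes with a ratio of 1 or more, called ER-rich marked genes, and 4141 unmarked genes with a ratio below 1, both under the same filter and the same exclusions. All 4842 genes that passed the filter give the background shares. Of the 164, 24 have predicted-gene symbols (Gm or LOC) and are uncertain, because reads of near-identical copies can be split between them. Over 10 Tg footprint columns the score of Gm10177 was 0.938 to 1.02 times that of Sec61g, and that of LOC100047577 was 0.907 to 0.942 times that of Cyb5b.

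The genes hold several protein classes. On role lists that were compiled with earlier results of these data known, 84 of the 164 genes appeared on 11 of 16 lists, and 80 appeared on none, 24 of these being predicted genes. The rule itself made members of 164 of the 266 marked genes that passed the filter and were not left out by symbol (61.7%), the share beside which the counts per list are given, as a description and with no test. The tail-anchored and SNARE list contributed most: 36 of its 38 marked genes that passed the filter were members, the others being Selk and Reep5. Every marked SNARE of 3 families that passed the filter was a member, namely 8 of 8 syntaxins, 6 of 6 VAMPs and 8 of 8 of the Bet1, Gosr, Sec22, Use1 and Vti1 group. The SNAREs Ykt6, Snap23 and Snap29, which are held at membranes by lipid or by partners and have no membrane span, passed the filter and were unmarked. On the list of lumenal, secreted and surface proteins, 1 of the 16 marked genes that passed the filter was a member (Fgf7, a secreted growth factor).

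The mitochondrial membrane and BCL2 lists held 43 of the 164 genes. Of the marked genes that passed the filter, members were 13 of 15 for the outer membrane and its fission and fusion, 14 of 19 for inner membrane organisation, 9 of 11 on the BCL2 family and apoptosis list and 7 of 10 for protein import. The last and the inner membrane list, at 70% and 73.7%, lay near the 61.7% of all such genes. In the import machinery, the membrane-embedded inner membrane translocase subunits Timm17a, Timm17b and Timm23 were members, Timm50 had a ratio of 1 or more, and 7 other Timm genes, most of them for small intermembrane-space chaperones, were unmarked. In the outer membrane translocase, Tomm7 and Tomm22 were members, Tomm20 had a ratio of 1 or more, and 5 others (Tomm5, Tomm6, Tomm34, Tomm40 and Tomm70a) were unmarked. Of 8 marked BCL2-family genes that passed the filter, Bax, Bcl2l13, Bnip1, Bnip3, Bnip3l and Mcl1 were members and Bak1 and Bcl2l1 were not. On the lists of mitochondrial matrix enzymes and mitochondrial gene expression, 1 gene each was a member (Mthfd2, a one-carbon enzyme, and Lrpprc, an RNA-binding protein), beside 65 and 12 unmarked genes with a ratio below 1.

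Promoters are shown for 5 members picked by their footprints or their sequence. Serp1 and Stx5a were picked from the 8 members with ER footprints over 2-fold higher after 4 h of Tg. Ube2j1, Smim14 and Mtch1 are the members in which a stress-response motif was found. The UPRE core, TGACGTGG, is recognised by the stress transcription factors XBP1 and ATF6. Of 117 members with a RefSeq promoter entry (GRCm38.p6), 3 (2.56%) held it on either strand in the 250 bases before the start, against 0.603% of 27025 genes. A gene with several entries counted when any of them held the motif, and an entry with a match was then the one shown. The shares were not adjusted for the number of entries per gene. The ERSE (CCAAT, any 9 bases, then CCACG) was in 0 of the 117 and in 0.130% of all genes, and ERSE-II (ATTGG, any 1 base, then CCACG) in 0 and in 0.0370%, both searched on either strand. CCACG also begins the UPRE core as read on the other strand, so the motifs can overlap, and a match is a description of letters only. The stretches are Serp1 at chr3:58525885-58526134 on the minus strand, Stx5a at chr19:8741174-8741423 on the plus strand, Ube2j1 at chr4:33031130-33031379 on the plus strand, Smim14 at chr5:65492712-65492961 on the minus strand and Mtch1 at chr17:29347328-29347577 on the minus strand. Each is written 5′ to 3′ along the gene, and capitals mark the UPRE core as read on that strand.
Serp1: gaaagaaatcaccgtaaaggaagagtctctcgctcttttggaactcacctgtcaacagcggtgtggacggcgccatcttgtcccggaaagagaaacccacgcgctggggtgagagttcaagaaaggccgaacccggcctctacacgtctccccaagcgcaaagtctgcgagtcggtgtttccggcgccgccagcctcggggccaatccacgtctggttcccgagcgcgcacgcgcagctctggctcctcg
Stx5a: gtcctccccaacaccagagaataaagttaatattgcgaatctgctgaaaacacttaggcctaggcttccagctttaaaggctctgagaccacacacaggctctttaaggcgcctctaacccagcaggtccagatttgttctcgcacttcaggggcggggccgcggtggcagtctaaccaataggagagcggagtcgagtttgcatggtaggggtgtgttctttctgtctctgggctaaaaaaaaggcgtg
Ube2j1: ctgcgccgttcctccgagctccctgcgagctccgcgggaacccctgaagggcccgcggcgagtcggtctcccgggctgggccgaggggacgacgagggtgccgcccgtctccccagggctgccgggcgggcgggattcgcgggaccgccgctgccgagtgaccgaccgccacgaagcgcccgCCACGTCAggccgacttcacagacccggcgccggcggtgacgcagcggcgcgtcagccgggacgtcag
Smim14: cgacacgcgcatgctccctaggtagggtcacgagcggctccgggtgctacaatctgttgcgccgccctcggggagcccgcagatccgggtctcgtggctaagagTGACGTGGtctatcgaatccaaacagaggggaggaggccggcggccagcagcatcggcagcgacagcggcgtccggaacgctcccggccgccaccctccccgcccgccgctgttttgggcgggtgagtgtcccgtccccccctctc
Mtch1: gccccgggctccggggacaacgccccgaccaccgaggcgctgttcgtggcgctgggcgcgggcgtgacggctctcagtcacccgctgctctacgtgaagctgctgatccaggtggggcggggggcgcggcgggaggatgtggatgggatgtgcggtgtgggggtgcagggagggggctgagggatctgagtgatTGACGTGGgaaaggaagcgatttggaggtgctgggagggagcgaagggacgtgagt
The match begins 68 bases before the start of the entry shown in Ube2j1, 146 in Smim14 and 56 in Mtch1. After 4 h of Tg the log2 change of ER footprints from untreated was 1.58 for Serp1 and 1.14 for Stx5a, and it was 0.48 for Ube2j1, 0.29 for Smim14 and -0.64 for Mtch1. Serp1 and Stx5a were chosen for those values, so the 2 sets of genes cannot be compared by them.

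In the treated groups, which the rule did not use except to require values, the genes stayed in the cytosol range. Their median ER share of the summed footprint score was 35.8% in untreated cells, 28.1% after 0.5 h of Tg, 35.5% after 1 h, 38.6% after 2 h and 42.0% after 4 h. Under DTT it was 25.05%, with 29.2% after 10 min and 35.04% after 20 min of recovery. The ER-rich marked genes had 78.8% in untreated cells, 40.8% after 0.5 h and 68.4% after 4 h of Tg, 30.95% under DTT and 62.8% after 20 min of recovery. The ER score was below the cytosol score in all 7 treated groups for 118 of the 151 members with values in each (78.1%). The same held for 1 of 99 ER-rich marked genes, 3340 of 3915 unmarked genes (85.3%) and 3665 of 4584 genes in all (80.0%), so the members' share was close to that of all genes.

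On the log2 scale the median difference of ER minus cytosol footprints was -0.80 for the members in untreated cells, and -1.28, -0.81, -0.64 and -0.44 after 0.5, 1, 2 and 4 h of Tg. The unmarked genes had medians of -0.79 in untreated cells and -1.17, -0.91, -0.68 and -0.52 at the same times. The ER-rich marked genes went from 1.82 in untreated cells to -0.53 at 0.5 h and returned to 1.09 at 4 h. In untreated cells 47 of 164 members were over 2-fold lower in the ER column and 0 higher, beside 24.6% and 2% of all genes, counts that follow from the choice of genes. At 0.5 h, 108 of 164 members (65.9%) were over 2-fold lower in the ER column, against a background of 61.7% of all genes, and 0 were over 2-fold higher (background 0.062%). With the median of all genes with values, -0.73, subtracted, 34 were lower and 1 higher. The genes that passed the filter, which give the backgrounds, had a lower median of -1.15. No share of all genes was computed after centring, here or below. The centred counts therefore have no background and show only how the counts depend on the scaling. At 1 h, 63 were over 2-fold lower (background 41%) and 0 higher (background 0.785%), and at 2 h 29 (background 14.8%) and 0 (background 0.867%). The same centring gave 31 lower and 3 higher at 1 h and 3 lower and 0 higher at 2 h. At 4 h, 16 members were over 2-fold lower (background 8.92%) and 1, Romo1, a small inner membrane protein, was over 2-fold higher (background 1.69%), or 8 and 3 after centring. Under DTT the median was -1.53 over 151 members, against -1.48 for the unmarked and -1.13 for the ER-rich marked genes. There, 128 of 151 members were over 2-fold lower, against a background of 78.1%, and 0 were over 2-fold higher (background 0.109%), or 27 and 2 with the median of all genes, -1.11, subtracted. After 10 and 20 min of recovery the members' medians were -1.24 and -0.84, against -1.29 and -1.04 for the unmarked and 0.17 and 0.74 for the ER-rich marked genes. At 10 min 106 of 163 members were over 2-fold lower (background 70.7%) and 0 higher (background 0.434%), and at 20 min 63 of 164 (background 50.1%) and 2, Gnptab and Vamp2 (background 1.09%). After centring, 4 were lower and 2 higher at 10 min, and 4 lower and 6 higher at 20 min, so the balance at 20 min turned with the scaling.

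**Figure D1:**
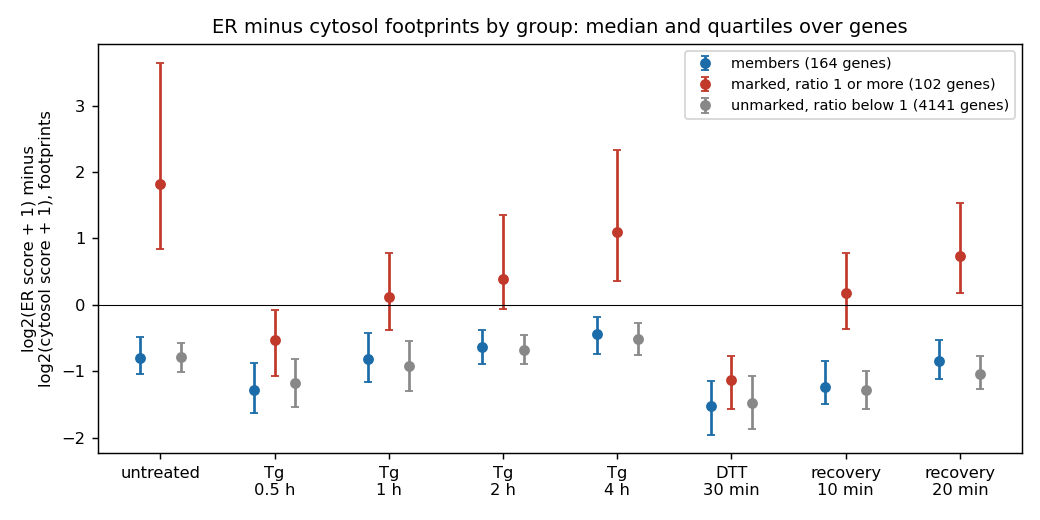
Median (points) and quartiles (bars) over genes of the difference between ER and cytosol footprints, as log2(score + 1), in each of 8 groups, for the 164 members (up to 13 fewer under DTT and early recovery), the ER-rich marked genes and the unmarked genes with a ratio below 1. The members lie with the unmarked genes in every group, from -1.53 under DTT to -0.44 after 4 h of Tg, whereas the ER-rich marked genes move between 1.82 and -1.13; the untreated values chose the 3 sets.

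Single members departed from this range. Averaged over the treated groups with values, the ER share was highest for the vesicle SNARE Vamp2 (55.7%), the Golgi SNARE Bet1l (51.3%), Gnptab, the Golgi enzyme that starts the mannose 6-phosphate tag of lysosomal enzymes (51.1%), the anti-apoptotic protein Mcl1 (48.2%) and the outer membrane protein Tspo (48.0%). Vamp2 had values in only 5 of the 7 treated groups. It lacked ER values under DTT and at 10 min of recovery, where the members' median shares were low (25.05% and 29.2%). Its rank is therefore uncertain, and with an untreated cytosol score of 10.1 it lay at the level threshold. It was lowest for the adaptor protein syntenin, Sdcbp (23.6%), the endosomal SNARE Vti1b (24.1%), Isoc1 (24.5%), the predicted gene Gm11575 (24.7%) and Ccdc90b (24.7%). The list medians lay close together: after 0.5 h of Tg the ER minus cytosol difference was -1.19 over 36 tail-anchored and SNARE members, -1.20 over 13 outer membrane members, -1.20 over 9 on the BCL2 list, -0.97 over 14 inner membrane members and -0.76 over 7 import members.

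On the deposited scale, the ER column of the members was lower after 0.5 h of Tg and their cytosol column was not. The changes from untreated at every time share the untreated values that chose the genes. In the ER column the median log2 change at 0.5 h was -0.46 for the members, -1.02 for the ER-rich marked and -0.37 for the unmarked genes. Of 164 members, 32 were over 2-fold lower (background 17.1%) and 3 over 2-fold higher (background 3.20%). Relative to the median of all genes with values, which was -0.17, these counts were 19 and 7. In the cytosol column the median change was 0.03 for the members and 0.00 for the unmarked genes but 1.73 for the ER-rich marked genes. There, 5 members were over 2-fold higher (background 6.15%) and 2 over 2-fold lower (background 0.578%), namely Bri3 and the SNARE Stx6, while 67 of 102 ER-rich marked genes were over 2-fold higher. With the median of all genes in that column, 0.23, subtracted, 4 members were higher and 6 lower. The members' median change after centring was -0.28 in the ER column and -0.20 in the cytosol column. The contrast between the columns thus depended on the scaling. All 32 members that were over 2-fold lower in the ER column were within 2-fold in the cytosol column. Few genes of any kind were past 2-fold there (0.578% of all genes lower and 6.15% higher), so this overlap is not particular to the members. At 1 h, 17 members were over 2-fold lower in the ER column (background 7.60%) and 7 higher (background 4.54%), or 14 and 9 after centring on all genes. At 2 h these were 3 (background 2.46%) and 4 (background 6.92%). In the cytosol column 7 were lower (background 3.72%) and 6 higher (background 6.84%) at 1 h, and 4 (background 2.33%) and 2 (background 5.8%) at 2 h. After centring, the cytosol counts were 11 and 6 at 1 h and 7 and 0 at 2 h. The count of lower members in the ER column was thus highest at 0.5 h.

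Of the 36 members on the tail-anchored and SNARE list, 5 were over 2-fold lower and 1 over 2-fold higher in the ER column at 0.5 h. Beside 17.1% and 3.20% of all genes, these counts lay near the background. The median change on the list was -0.17. Vapa, which tethers the ER to other membranes, had ER scores of 121 in untreated cells and 23.2, 38.2, 93.6 and 137 after 0.5, 1, 2 and 4 h of Tg. Its cytosol scores were 212, 136, 118, 163 and 206 at the same times. The ER score was thus lowest at 0.5 h, with a log2 change of -2.33, and was back above the untreated score at 4 h, while the cytosol score was lowest at 1 h. Its paralog Vapb had ER scores of 17.9, 7.76, 13.3, 16.9 and 20.3 and cytosol scores of 32.5, 29.6, 23.5, 34.5 and 30.8.

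The late endosomal syntaxin Stx7 was also lowest in the ER column at 0.5 h, with ER scores of 24.1, 10.1, 14.05, 24.9 and 39.4 and cytosol scores of 54.2, 31.03, 31.3, 38.4 and 51.9. Stx12, a syntaxin of recycling endosomes, had ER scores of 36.7, 13.8, 25.05, 28.5 and 37.1 and cytosol scores of 61.0, 45.9, 41.4, 40.2 and 48.6. Sec22b, a SNARE of transport between the ER and the Golgi, had ER scores of 21.9, 9.99, 19.7, 19.9 and 26.4. Stx7, Stx12 and Sec22b, with Vapa and Vapb, were the 5 members on the tail-anchored and SNARE list over 2-fold lower at 0.5 h. In each of these 5 the ER score at 4 h was above that in untreated cells. The translocon subunits differed from them: Sec61g had ER scores of 246, 293, 261, 242 and 262 and cytosol scores of 505, 780, 569, 495 and 536, and Sec61b had ER scores of 97.3, 123, 147, 77.9 and 106. Neither Sec61 subunit was over 2-fold different from untreated cells in either fraction under Tg.

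A trio of Golgi SNAREs had higher scores. Stx5a, Gosr1 and Bet1l encode partners in 1 SNARE complex for traffic within the Golgi. Bet1l had ER scores of 15.8, 35.6, 71.5, 43.7 and 33.7 and cytosol scores of 16.8, 21.9, 42.4, 38.5 and 32.6, highest at 1 h in both columns, and its ER score was above its cytosol score in each Tg group. Gosr1 had ER scores of 18.2, 27.2, 25.8, 43.8 and 39.3 and cytosol scores of 35.3, 47.3, 57.2, 54.4 and 44.1. Stx5a had ER scores of 17.2, 15.7, 16.1, 30.0 and 39.3 and cytosol scores of 34.3, 36.0, 44.5, 65.4 and 66.1. At 4 h the log2 change in the ER column was 1.05 for Bet1l, 1.07 for Gosr1 and 1.14 for Stx5a, of which Stx5a alone remained over 2-fold once the median of all genes, 0.13, was subtracted.

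**Figure D2:**
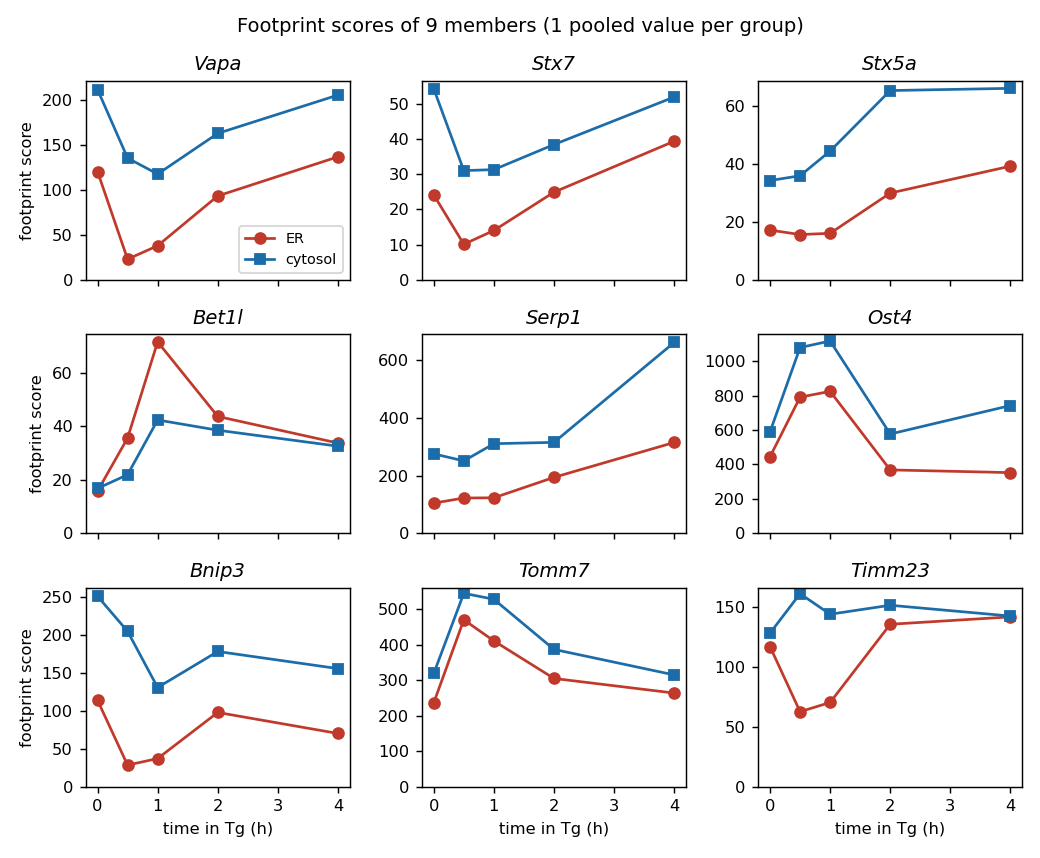
Footprint scores (vertical axis, authors' scale, 1 pooled value per group) of 9 members against hours in Tg, with the ER column as circles and the cytosol column as squares; the scale differs between panels. Vapa, Stx7, Bnip3 and Timm23 are lowest in the ER at 0.5 h, Bet1l peaks at 1 h, and Serp1 and Stx5a are highest at 4 h.

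At 4 h of Tg, 8 members were over 2-fold higher than untreated in the ER column (background 5.29%) and 0 were lower (background 1.57%). The median change was 0.22, against 0.20 for all genes that passed the filter. Serp1, a small tail-anchored protein that binds the translocon, had ER scores of 105, 122, 123, 194 and 315 and cytosol scores of 275, 251, 310, 315 and 661, the highest of both columns falling at 4 h. Hmox1, the tail-anchored ER enzyme that degrades heme, had ER scores of 22.6, 30.1, 27.1, 36.8 and 66.7 and cytosol scores of 40.1, 74.5, 54.6, 55.4 and 66.2. Mthfd2 had ER scores of 15.97, 7.48, 19.3, 22.5 and 39.8, and Fam210a, a mitochondrial protein, 20.1, 27.3, 27.1, 41.2 and 48.6. The others were Stx5a, Gosr1, Bet1l and 3110001D03Rik. Of the 8, 5 were on the tail-anchored and SNARE list, which holds 36 of the 164. With the median of all genes, 0.13, subtracted, 6 members were over 2-fold higher, and Gosr1 and Bet1l were no longer among them. The make-up of this group thus depended on the scaling. In the cytosol column 3 members were over 2-fold higher (Serp1, Fam210a and the tyrosine phosphatase Ptpn2, background 3.49%) and 3 over 2-fold lower (Romo1, Mgst3 and Mtch1, background 3.16%). For Ptpn2 the log2 change was 1.00.

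The step from 0.5 h to 4 h of Tg does not use the untreated values. In the ER column the median log2 difference was 0.70 for the members, 0.96 for the ER-rich marked genes and 0.59 for all genes, and 47 members were over 2-fold higher (background 25.9%) and 3 over 2-fold lower (background 2.52%). Relative to the median of all genes with values, 0.38, the counts were 20 and 9. The tail-anchored and SNARE list had 15 of 36 members over 2-fold higher and 0 lower, the outer membrane list 4 of 13 and 0, the inner membrane list 4 of 14 and 0, the BCL2 list 3 of 9 and 0 and the import list 1 of 7 and 0. Among the members with a mean Tg footprint score above that of the median member, the highest differences were 2.52 for the interleukin-1 receptor antagonist Il1rn and 2.51 for Vapa. In the cytosol column the median was -0.16, with 15 members over 2-fold lower (background 8.20%) and 4 higher (background 1.84%), against -1.02 and 52 of 102 lower for the ER-rich marked genes. Relative to the median of all genes, -0.29, 8 members were lower and 9 higher, so the excess of lower over higher members depended on that scaling.

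Mitochondrial members showed both kinds of course. Bnip3, an outer membrane receptor for mitophagy, had ER scores of 114, 28.5, 37.1, 97.7 and 70.1 over untreated, 0.5, 1, 2 and 4 h and cytosol scores of 251, 204, 131, 178 and 155. Its relative Bnip3l had ER scores of 36.0, 14.7, 18.6, 28.9 and 37.1. Mff, a receptor for the fission protein DRP1, had ER scores of 17.3, 2.99, 5.01, 9.89 and 16.3, a log2 change of -2.20 at 0.5 h. Timm23, the channel subunit of the inner membrane translocase, had ER scores of 117, 62.8, 70.5, 136 and 142 while its cytosol scores, 129, 162, 144, 152 and 143, stayed above the untreated score. In all 4 genes the ER score was lowest at 0.5 h.

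Other mitochondrial members were higher in both columns at 0.5 h. Tomm7, a small subunit of the outer membrane translocase, had ER scores of 237, 471, 411, 305 and 264 and cytosol scores of 320, 546, 529, 387 and 315. Minos1, a small subunit of the complex that shapes the cristae, had ER scores of 129, 208, 223, 191 and 156 and cytosol scores of 217, 395, 373, 260 and 208. Timm17a, another translocase subunit, had ER scores of 67.3, 99.3, 74.4, 53.9 and 58.7 and cytosol scores of 105, 169, 174, 95.7 and 108. None of these differences from untreated was over 2-fold. On the whole lists, 3 of 13 outer membrane, 4 of 9 BCL2-list, 2 of 14 inner membrane and 0 of 7 import members were over 2-fold lower in the ER column at 0.5 h, and 0 on the 4 lists were over 2-fold higher, beside 17.1% lower and 3.20% higher of all genes. On lists this small, differences from that background cannot be read, and no test was run.

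Members outside these lists had courses of their own. Ost4, a very small subunit of the oligosaccharyltransferase, had ER scores of 445, 791, 825, 369 and 353 over the Tg course and cytosol scores of 589, 1079, 1117, 577 and 742. Fgf7, whose untreated ratio lies just inside the threshold, had ER scores of 113, 257, 158, 146 and 152 and cytosol scores of 114, 401, 297, 198 and 166. Fgf7 and Fam96a were the members over 2-fold higher in both columns at 0.5 h. Nap1l1, a histone chaperone of the cytosol and nucleus, had ER scores of 333, 255, 238, 391 and 428 and cytosol scores of 691, 793, 822, 640 and 802. Sdcbp had ER scores of 222, 116, 125, 249 and 221 and cytosol scores of 464, 536, 480, 467 and 381.

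**Figure D3:**
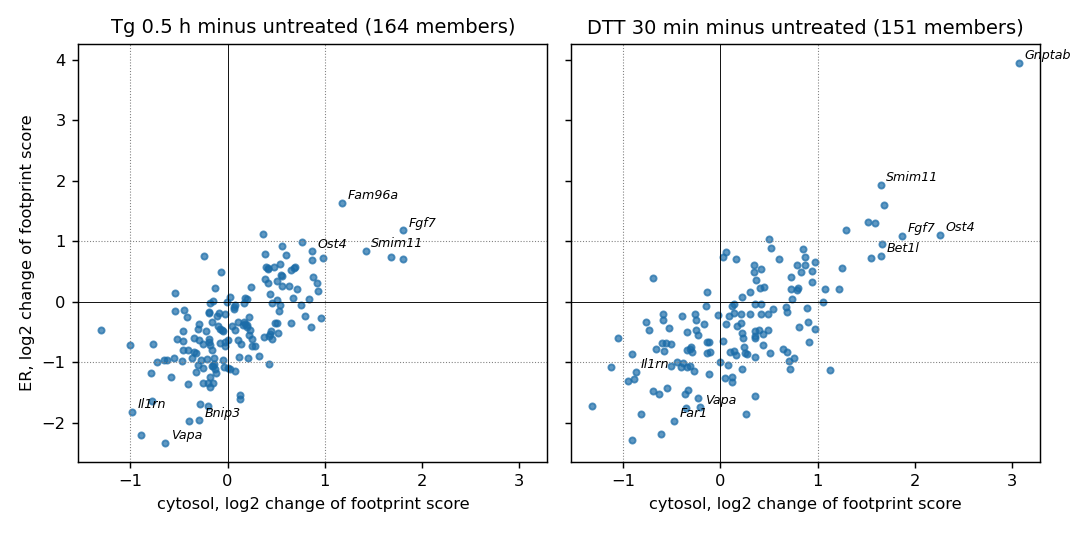
Log2 change of the footprint score from untreated in the ER column (vertical axis) against the cytosol column (horizontal axis), 1 point per member, after 0.5 h of Tg (left, 164 members) and 30 min of DTT (right, 151 members); dotted lines mark 2-fold. At 0.5 h of Tg most points lie within 2-fold in the cytosol column, as did most of all genes, while 32 lie below the lower line of the ER column (background 17.1%). Both panels share the untreated data.

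Under DTT the ER column was again lower on the deposited scale. Relative to the same untreated data, the median log2 change in the ER column was -0.47 over 151 members, and 34 were over 2-fold lower (background 24.2%) and 9 over 2-fold higher (background 5.19%). Relative to the median of all genes, -0.23, the counts were 20 and 13. In the cytosol column the median was 0.19, with 19 of 164 members over 2-fold higher (background 11.9%) and 3 lower (background 2.67%), where the ER-rich marked genes had a median of 2.24 and 82 of 102 higher. Relative to the median of all genes in that column, 0.49, 12 members were higher and 24 lower, so the balance of the cytosol calls turned with the scaling. The members' median change after centring was -0.25 in the ER column and -0.29 in the cytosol column. On the tail-anchored and SNARE list, 8 of 32 members with values were over 2-fold lower in the ER column and 0 higher. On the outer membrane list these counts were 5 and 0 of 13.

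Ost4 had ER scores of 406 in untreated cells, 872 under DTT and 879 and 720 after 10 and 20 min of recovery, and cytosol scores of 622, 2989, 2316 and 1822. Gnptab had ER scores of 6.51, 115, 57.9 and 58.3 and cytosol scores of 12.5, 112, 33.1 and 15.3, the highest log2 changes of any member in both columns at 3.94 and 3.07. Bet1l had ER scores of 14.4, 25.2, 59.95 and 58.1 and cytosol scores of 17.7, 57.7, 59.0 and 58.8. The scores of Gnptab were highest under DTT in both columns and those of Bet1l after 10 min of recovery, while Ost4 was highest under DTT in the cytosol column and after 10 min of recovery in the ER column. Smim11, a small membrane protein, had ER scores of 17.6, 69.6, 43.0 and 71.2 and cytosol scores of 39.9, 127, 70.9 and 72.6.

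Among members with lower scores, Vapa had ER scores of 110, 32.2, 65.0 and 85.1 and cytosol scores of 224, 194, 208 and 208. Far1, a peroxisomal enzyme of ether lipid synthesis, had ER scores of 33.03, 7.72, 19.2 and 24.8 and cytosol scores of 63.8, 45.7, 71.5 and 53.6. Stx18, an ER syntaxin, had ER scores of 12.8, 2.80, 12.4 and 11.8 and cytosol scores of 27.9, 33.8, 36.9 and 28.5. In all 3 the ER score was lowest under DTT and the ER score after 20 min of recovery was still below the untreated one. Timm23 had ER scores of 107, 38.3, 69.2 and 83.0.

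**Figure D4:**
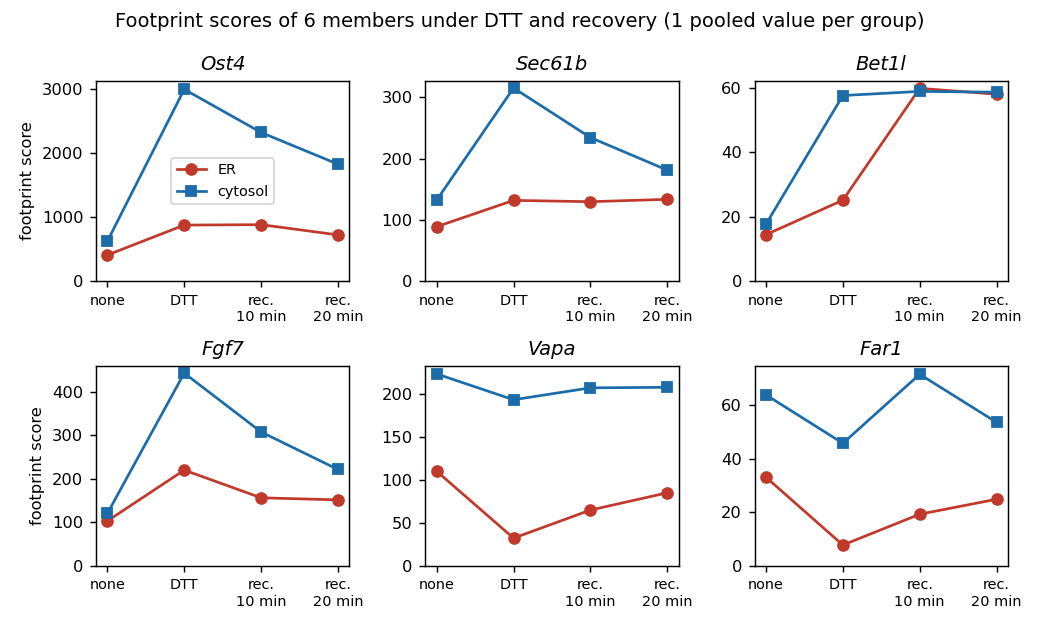
Footprint scores (vertical axis, authors' scale, 1 pooled value per group) of 6 members in untreated cells, after 30 min of DTT and after 10 and 20 min of recovery, with the ER column as circles and the cytosol column as squares; the scale differs between panels. The cytosol score of Ost4 reaches 2989 under DTT, and the ER scores of Vapa and Far1 are lowest there.

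Recovery against DTT does not use the untreated values. After 20 min, 42 of 151 members were over 2-fold higher in the ER column than under DTT (background 20.8%) and 2 were lower (background 1.31%), with a median of 0.50 for the members and 0.50 for all genes that passed the filter. With 0.33, the median of all genes with values, subtracted, the counts were 21 and 5. The tail-anchored and SNARE list had 9 of 32 members higher and 1 lower, the inner membrane list 6 of 14 and 0, the outer membrane list 5 of 13 and 0, the import list 3 of 7 and 0 and the BCL2 list 2 of 9 and 0. Mcl1 had ER scores of 50.3 in untreated cells, 43.6 under DTT and 86.1 and 124 after 10 and 20 min of recovery, highest at 20 min. Its cytosol scores were 73.2, 60.9, 96.4 and 83.9. Synj2bp, a tail-anchored outer membrane protein, had ER scores of 22.2, 11.3, 20.0 and 42.7. In the cytosol column 10 members were over 2-fold lower than under DTT (background 6.13%) and 1, Bri3, was higher (background 1.78%), or 6 and 5 after centring on all genes. At 10 min the ER column had 21 members higher (background 11%) and 1 lower (background 1.26%), or 12 and 3 after centring, and the cytosol column 2 higher (background 1.63%) and 5 lower (background 2.21%), which became 5 and 4 after centring. Against untreated cells, 11 members were over 2-fold higher in the ER column at 20 min of recovery (background 5.8%) and 1 lower (background 1.03%), and 4 higher in the cytosol column (background 4.4%) and 1 lower (background 0.475%), the last pair becoming 2 and 4 after centring.

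The mRNA columns were not used by the rule but hold fewer values. In untreated cells 48 of the 164 members had an mRNA score in both fractions, 29 had all 10 Tg mRNA values and 57 had none. The 48 had a median summed untreated footprint score of 71.3, against 56.5 for the other 116, so the counts below describe members with higher scores, on a scale that may depend on gene length. The median ER minus cytosol difference of mRNA was 0.11 over the 48 members, -0.01 over 2141 unmarked genes and 1.32 over 25 ER-rich marked genes. In the ER column 5 members were over 2-fold higher (background 5.62%) and 2 lower (background 2.95%), or 2 and 3 after centring on the median of all genes, 0.18. The higher ones were Sacm1l, a phosphoinositide phosphatase of the ER and Golgi (1.61), Mtx1, an outer membrane import protein (1.44), Mtch1, another outer membrane protein (1.16), Nudt9 (1.16) and the plasma membrane syntaxin Stx4a (1.16). The lower ones were LOC100862433 (-1.08) and Mthfd2 (-1.07).

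After 0.5 h of Tg the mRNA median was -0.66 over 42 members, with 10 over 2-fold lower (background 27.4%) and 0 higher (background 0.307%), the 10 becoming 0 after centring, against -0.65 for the unmarked and -0.95 for the ER-rich marked genes. The medians were 0.11, 0.18 and 0.14 at 1, 2 and 4 h. Under DTT the median was -0.87 over 32 members, with 11 over 2-fold lower (background 44.6%) and 0 higher (background 0.155%), which became 0 lower and 2 higher (Mtx1 and Sacm1l) after centring. Timm23 mRNA had ER scores of 77.0, 41.3, 56.6, 57.3 and 76.9 and cytosol scores of 55.3, 96.1, 47.4, 66.4 and 69.8 over the Tg course. At 0.5 h the Timm23 mRNA score was therefore lower than in untreated cells in the ER column and higher in the cytosol column, as were its footprints.

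Other members with mRNA values gave different pairs of courses. Fgf7 mRNA had ER scores of 810, 484, 450, 402 and 564 and cytosol scores of 491, 562, 288, 369 and 462, so that its ER mRNA was lower at 0.5 h while its ER footprints were higher. Ptpn2 mRNA had ER scores of 56.7, 64.0, 74.1, 78.6 and 134 and cytosol scores of 67.2, 91.6, 71.6, 81.6 and 121, highest at 4 h in both columns. Mthfd2 mRNA had ER scores of 15.2, 14.9, 43.7, 58.8 and 70.3 and cytosol scores of 32.9, 40.03, 42.8, 48.0 and 67.8, also highest at 4 h. In the ER column 5 of 46 members had mRNA over 2-fold higher at 4 h than untreated (background 7.74%) and 0 lower (background 1.16%).

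**Figure D5:**
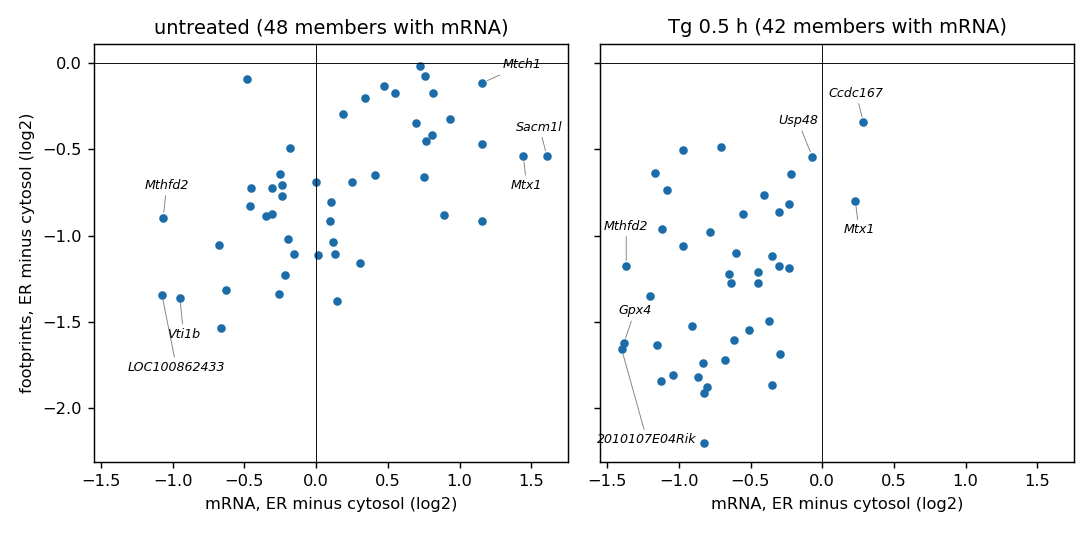
ER minus cytosol difference of footprints (vertical axis) against that of mRNA (horizontal axis), both as log2(score + 1), for members with mRNA values in both fractions, in untreated cells (left, 48 members) and after 0.5 h of Tg (right, 42 members). In untreated cells the mRNA values lie on both sides of 0, with a median of 0.11, while the rule keeps the footprint values below 0; after 0.5 h the mRNA median is -0.66.

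The authors' ribosome density, whose formula is not stated, was lower in the ER column for the members with values. The median ER minus cytosol difference of log2(density + 1) was -0.48 over 48 members in untreated cells, where the footprints are those the rule used. It was -0.34, -0.40, -0.43 and -0.34 after 0.5, 1, 2 and 4 h of Tg. All genes that passed the filter had medians of -0.42 in untreated cells and -0.29, -0.59, -0.46 and -0.42 after Tg. At 0.5 h, 2 of 42 members were over 2-fold lower (background 7.60%), or 1 after centring, and 0 higher (background 0.747%).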

How the data were processed

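Per the labels' protocols, footprints came from nuclease-treated, pelleted ribosomes, and mRNA was depleted of ribosomal RNA before fragmentation. Bowtie is named in the submitters' processing notes, but its version was not given in the sources used here, nor was a genome build. An assay is labelled for the 40 Tg samples but not for the 12 DTT samples. The authors deposited 2 tables with 3 header lines. In the translation and mRNA columns the authors give a score whose scaling no header explains, with both replicates pooled into 1 value. Whether the score is per gene length is not stated, so levels were compared within a gene; between genes they were ranked only to choose which genes to name and to describe the members with mRNA values. The density columns hold the authors' ribosome density, whose formula no header explains and which is not the plain ratio of the deposited scores. In the ER column of untreated cells it was 2.48 for Vapa, with a footprint score of 121 and an mRNA score of 38.4. For Gpx4 it was 1.87, with scores of 69.8 and 44.9. The TRUE or FALSE column (unit other) was deposited with no header. Blanks stayed blank. All value columns were mapped.

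Differences are of log2(value + 1) computed from the deposited scores, with no filter beyond the rule, in Python 3.11.15 with pandas 2.3.3, numpy 2.4.6 and scipy 1.17.1, tested on simulated data. The same untreated data underlie every change from untreated. With pooled values no test could be run, although the design allowed for one. Counts were repeated with a pseudocount of 0.1, after centring on the median of all genes, with a cytosol minimum of 20, with a ratio below 0.5, with blanks taken as 0, with a ratio recomputed from the scores (density) and, as a choice made after seeing the data, without Gm and LOC symbols. Members and lists were chosen with earlier results of these data known. Named genes were the 4 members of each list with the highest untreated cytosol scores, the 4 highest and 4 lowest members over 2-fold per comparison with a mean Tg footprint level above the median member, the 3 nearest each threshold, the 10 highest untreated scores and the 5 highest and lowest ER shares; further genes (Stx6, Stx7, Stx18, Vapb, Sec22b, Sec61b, Mff, Romo1 and others given only by name or as relatives of these) were picked once their values were known. Not every gene that meets the rule is described. Of the 164, 146 matched RefSeq (GRCm38.p6) by accession or symbol, 141 of them by accession.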

Additional observations from a re-analysis of the deposited data

How the results depend on the processing

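The share of members over 2-fold was recomputed for 16 comparisons under 89 alternatives. In 72 it stayed within the 95% binomial interval of the reported share, and in 17 it moved outside. The interval counts genes as if independent and measures no spread between replicates. Most alternatives reuse the same genes, so it is only a yardstick for the size of a shift, and a share inside it is not a test passed. Centring on the median of all genes with values gave 11 of these. The share of all genes past 2-fold was not computed after centring. For ER minus cytosol footprints, 20.7% of members were over 2-fold lower at 0.5 h of Tg (reported 65.9%), 4.88% at 4 h (9.76%) and 17.9% under DTT (84.8%). For ER minus cytosol mRNA at 0.5 h, 0% were lower (23.8%). In the ER column against untreated, 11.6% were lower at 0.5 h (19.5%) and 13.2% under DTT (22.5%). From 0.5 h to 4 h, 12.2% were higher in the ER column (28.7%) and 4.88% lower in the cytosol column (9.15%), and 13.9% were higher in the ER column after 20 min of recovery (27.8%). For mRNA against untreated, 0% were lower in the ER column at 0.5 h (8.51% of 47 members before centring, background 10.69%). In the cytosol column under DTT, 2.22% were higher (20.0% of 45 members before centring, background 11.997%). Neither of these mRNA comparisons is described above.

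Keeping the 52 members with a ratio below 0.5 gave 86.5% lower in ER minus cytosol footprints at 0.5 h and 17.3% at 4 h, 1.92% higher in the ER column at 4 h (4.88%), 3.85% higher in the cytosol column under DTT (11.6%) and 0% of 14 higher in untreated ER minus cytosol mRNA (10.4%). The cut at 0.5 is on the untreated ratio by which the members were chosen, so these shifts can follow from the selection. No share of all genes under that cut is given here. A pseudocount of 0.1 gave 16.7% lower in ER minus cytosol density at 0.5 h (4.76%). The cytosol minimum of 20 and leaving out Gm and LOC symbols moved no share outside its interval, nor did blanks taken as 0 or the recomputed density. For 167 named differences, 334 alternatives gave 291 on the same side of 2-fold, 43 within 2-fold and 0 reversed.

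No paired analysis was possible because each group has 1 pooled column. Leaving out replicates was not run for the same reason, and protein features were not analysed here. The depth is unknown, low scores carry counting error that cannot be given, and a difference over 2-fold in 1 pooled value has no replicate check.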
